A study of Mus musculus with 10 samples.

Results

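The comparison described here is the crosslinked arm of a MEX3A RNA immunoprecipitation (RIP-seq) experiment in mouse neural stem cell cultures. Its members were chosen by protocol, and they are the 4 crosslinked libraries of 10 in all, each with all 15899 genes of the deposited matrix. The 2 FLAG libraries came from neurospheres of homozygous Mex3a FLAG/FLAG mice, in which a 3X-FLAG tag had been knocked in at the C-terminus of the endogenous Mex3a gene with CRISPR/Cas9 on a C57BL/6J background. The 2 wild-type (WT) libraries came from Mex3a+/+ cultures, which carry no tag and give the background of the pulldown. All cultures were grown with EGF and bFGF from the subependymal zone of mice aged 10 weeks, and the cells of all 4 libraries were fixed with 0.5% formaldehyde for 5 min, sonicated and incubated with the same mouse anti-FLAG antibody. The study describes the replicates as biological, and the animals behind each culture are not given in the sources used here.

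MEX3A belongs to a family of vertebrate proteins that bind RNA through KH domains and carry a RING finger of the ubiquitin ligase type. The family is named after MEX-3 of the nematode, which represses the translation of maternal mRNAs, and its members recognise short bipartite elements in 3′ untranslated regions (3′ UTRs). In a RIP experiment, the RNA recovered from tagged cells is set against that recovered from untagged cells. A gene higher in FLAG may have had more of its RNA bound to the tagged protein or more of its RNA in the culture, and these cannot be told apart, because input RNA was not analysed here.

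The deposited values are log2 normalized values, with nearly the same distribution in every library, so that the sequencing depth behind them cannot be read from the matrix. WT replicate 1 stood apart from the other libraries. Its correlation with them across genes was 0.953 to 0.962, whereas the other 3 libraries correlated with each other at 0.972 to 0.980. WT replicate 1 was also the only library with Y-linked RNA, since Ddx3y, Eif2s3y, Kdm5d and Uty had values of 4.36 to 7.08 there and of -1.23 or less in the other 3. Xist, the noncoding RNA of the inactive X chromosome, had a value of -0.71 in WT replicate 1 and of 10.59 to 10.86 in the other libraries. The X- and Y-linked genes therefore differed between the WT libraries themselves, and genes and lists below that met or missed the threshold according to WT replicate 1 are also given without it. The standard deviation across genes of the difference between replicates was 0.49 for FLAG and 0.67 for WT, on the log2 scale, against 0.42 for the difference between the group means. Replicate differences are between single libraries, and means of 2 libraries vary less, so these values are not directly comparable. Of the cell type markers, 22 of 26 stem cell and astrocyte genes were in the matrix. So were 5 of 14 microglial, 7 of 14 endothelial and mural and 4 of 12 ependymal markers, and among these 3 lists 0 genes were higher in FLAG and 1, the endothelial receptor gene Kdr, was lower (-1.92). Flt1, another endothelial receptor gene, had values of 3.95 and 4.06 in FLAG and 0.78 and 3.02 in WT, which did not meet the threshold, but it was higher without WT replicate 1 (0.98). Of 6 measured oligodendrocyte lineage genes, 2 were higher, and the median was 0.03 with all libraries and -0.17 without WT replicate 1, where 0 were higher.

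No gene passed the adjusted threshold in the crosslinked comparison (0% of 15899 genes; limma with Benjamini-Hochberg adjustment, smallest adjusted p = 0.315). At an unadjusted p under 0.05 and a log2 difference over 0.58, hereafter the unadjusted threshold, 442 genes were higher in FLAG (2.78% of all genes tested) and 157 were lower (0.987%). These shares are the background against which the counts below should be read, and genes past the unadjusted threshold are described, not called. The FLAG libraries lay entirely above the WT libraries for 3032 genes (19.1%) and entirely below for 3161 (19.9%). Autosomal genes made up 412 of the 442 higher genes and 152 of the 157 lower genes, or 2.67% and 0.986% of 15417 autosomal genes. Of 476 genes on the X chromosome, 30 were higher (6.30%) and 5 lower (1.05%). Without WT replicate 1, 497 genes (3.13%) were higher and 166 (1.04%) lower, of which 306 and 59 were among those found with all libraries. That fit leaves 1 WT library, which is assumed to vary as the 2 FLAG libraries do, so a gene can miss the threshold there with a difference as large as before, and the difference is given beside each such gene. The higher genes were spread over the range of levels, with 165, 135, 87 and 55 of them in 4 equal-sized classes of genes from the lowest to the highest mean level.

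**Figure D1:**
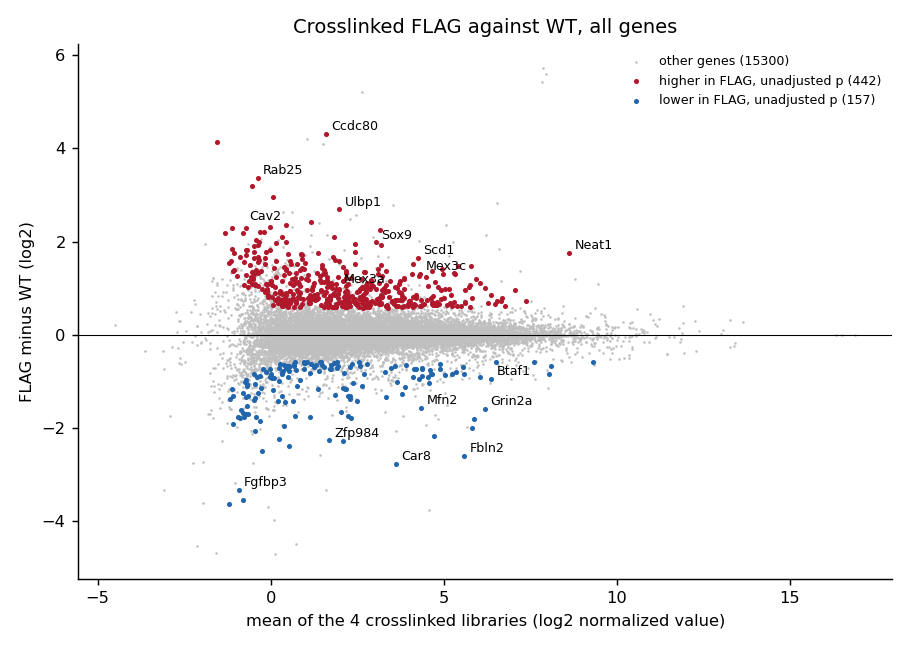
Difference between the FLAG and WT means (y axis, log2) against the mean of the 4 crosslinked libraries (x axis, log2 normalized value) for each of 15899 genes; red points are the 442 genes higher and blue points the 157 genes lower in FLAG at the unadjusted threshold. Both sets extend over low and high levels, and the grey points above 5 on the y axis include Xist, which had a value of -0.71 in WT replicate 1.

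The share of coding genes past the threshold differed with the number of exons. Of 252 measured coding genes whose longest coding transcript has 1 exon, 63 were higher in FLAG and 1 was lower. The share was 9.02% among 1198 genes with 2 or 3 exons, 2.91% among 5422 genes with 4 to 10 exons and 0.740% among 5404 genes with over 10 exons. The median differences were in the same order, at 0.35, 0.09, 0.01 and -0.02 on the log2 scale, and without WT replicate 1 these medians were 0.45, 0.08, 0.01 and -0.02. Genes with few exons had lower levels, with medians of 1.06 for 1 exon and 4.34 for over 10 exons. Among genes with a mean level above the median of all genes, the order was the same, with 13 of 40 single-exon genes, 27 of 364 genes with 2 or 3 exons and 28 of 4125 genes with over 10 exons higher in FLAG. Without the clustered protocadherins, a family of adhesion proteins with many single-exon members, 51 of 232 single-exon genes were higher. Genes spanning at most 5 kb of the genome showed the same order, with 144 of 1006 (14.3%) higher and 7 lower, while those spanning over 100 kb had 19 of 2135 higher and 31 lower. The length of the spliced transcript separated the genes less, since the higher coding genes had a median of 2828 nt, the lower ones 3328 nt and all coding genes 3322 nt. In the native libraries, which share no library with the crosslinked ones, the median difference was 0.91 for genes with 1 exon and -0.12 for genes with over 10.

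**Figure D2:**
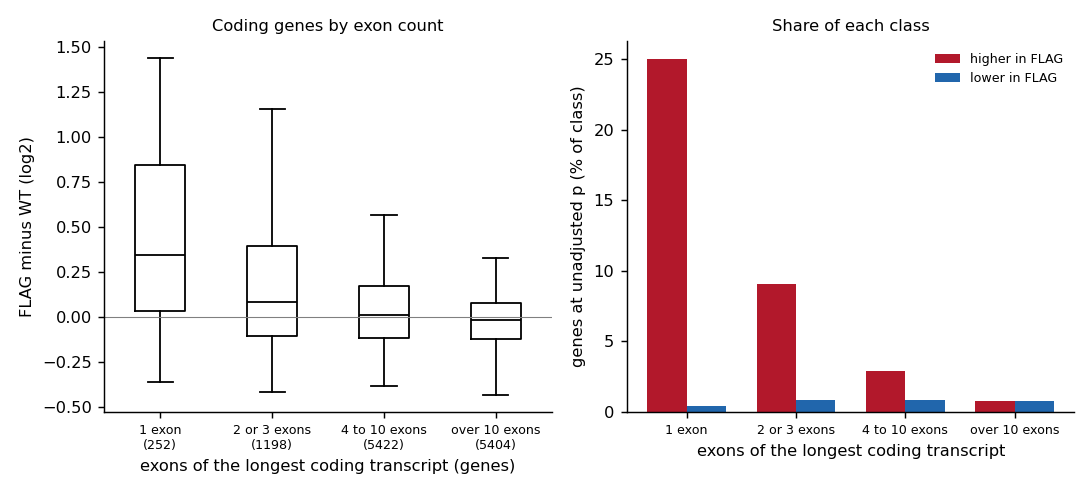
Left, difference between FLAG and WT (log2) for coding genes grouped by the exons of their longest coding transcript; boxes show the quartiles, the line the median and the whiskers the 5th to 95th percentiles of genes. Right, percentage of each class higher (red) or lower (blue) in FLAG at the unadjusted threshold, the higher share being largest with 1 exon and 0.740% with over 10 exons.

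The recognition element of MEX-3, looked for in the 3′ UTRs of coding genes, consists of a pair of 4-base motifs separated by 0 to 8 bases. At least 1 element was found in 80.5% of 365 higher coding genes with an annotated 3′ UTR, in 79.8% of 94 lower genes and in 77.2% of all 12108 coding genes. Per length, the higher genes had 3.40 elements per kb of 3′ UTR, the lower genes 2.69 and all coding genes 2.80. The 3′ UTRs of the higher genes also had the lowest GC content, with a median of 40.2% against 46.0% in the lower genes and 44.1% in all, and the part of base composition in the element counts was not tested. The pentamer ATTTA, the core of AU-rich elements, was present in 78.9%, 69.1% and 72.1% of these 3′ UTRs, at 2.27, 1.87 and 1.85 per kb. The longer AU-rich form TATTTAT was found in 32.3%, 33.0% and 32.1%, and the Pumilio-type motif TGTANATA in 32.1%, 24.5% and 28.0%, all searched on the sense strand only.

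The elements of several genes described below are shown as examples of what was searched, with that pair of motifs in capitals and the flanking bases in lower case. Each is the match with the shortest spacer in the longest annotated 3′ UTR of the gene, on GRCm38 (GENCODE M21, with the same bases in the RefSeq GRCm38 genome), and is written 5′ to 3′ in the sense of the mRNA.
Mex3a: aggtattgtgATAGgTCTAgcaccccttc
Mex3b: ttgcaccgctATAGtTTTAgtgtttctat
Mex3d: ggaatttataTTAGaTATAtgtactttac
Ulbp1: tgtgtgatctgAGAGTTTAtattagtaact
Sox9: gctgtggctggAGAGTATAaggaatgcttt
Cggbp1: aagattttataAGAGTTTAtttaggtaaat
Scd1: gagaccatcgtTTAGTCTAcattgctcttc
These windows lie at chr3:88538477-88538505 (plus strand), chr7:82871250-82871278 (plus), chr10:80380538-80380566 (minus), chr10:7444626-7444655 (minus), chr11:112787363-112787392 (plus), chr16:64856975-64857004 (plus) and chr19:44394695-44394724 (minus), in this order. The whole 3′ UTRs held 13 elements in Mex3a, 6 in Mex3b, 3 in Mex3d, 15 in Ulbp1, 8 in Sox9, 18 in Cggbp1 and 15 in Scd1. Ccdc80, the gene with the largest difference among those named by level, had 0 elements in a 3′ UTR of 567 nt.

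All 4 genes of the Mex3 family were higher in FLAG at the unadjusted threshold, and each has 2 exons. Mex3a itself, whose protein carries the tag, had values of 3.92 and 4.16 in FLAG and 2.75 and 3.03 in WT. The FLAG libraries were both above the WT libraries, and the difference was 1.15 ± 0.15 (SE, unadjusted p = 0.00165, adjusted p = 0.340). Mex3c, the family member on chromosome 18, had values of 4.75 and 5.20 in FLAG and 3.64 and 3.68 in WT, a difference of 1.31 ± 0.18 (SE, unadjusted p = 0.00169, adjusted p = 0.340). Mex3d had 2.48 and 3.07 in FLAG and 1.05 and 1.34 in WT, and Mex3b had 1.77 and 2.66 in FLAG and 1.13 and 0.97 in WT. Groups did not overlap for any of the 4 genes, and the differences of Mex3d and Mex3b were 1.58 and 1.17. Without WT replicate 1, Mex3b no longer met the threshold, at a difference of 1.24, while the other members did.

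The genes next to Mex3a showed a local pattern. Of 38 genes within 500 kb, 3 were higher in FLAG, 0 were lower, and the remaining 35 had differences of -1.58 to 0.46. The higher genes were Mex3a and the genes that follow its 3′ end on the opposite strand, Rab25 and Lamtor2. Rab25, a small GTPase of recycling endosomes that lies at chr3:88542029-88548300 with its 3′ end facing that of Mex3a (chr3:88532395-88541396), had values of 1.23 and 1.40 in FLAG and -2.04 and -2.08 in WT. Both WT libraries were far below both FLAG libraries, with a difference of 3.37 ± 0.27 (SE, unadjusted p = 2.11e-04, adjusted p = 0.315). Lamtor2, a subunit of the Ragulator complex on lysosomes, had 0.43 and 0.38 in FLAG and -1.46 and -0.86 in WT, a difference of 1.57. Ubqln4, the next gene, had a difference of -0.06. The library kit was stranded, but the strand setting of the counting is not given in the sources used here, so RNA running past the end of Mex3a and RNA of Rab25 cannot be told apart.

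**Figure D3:**
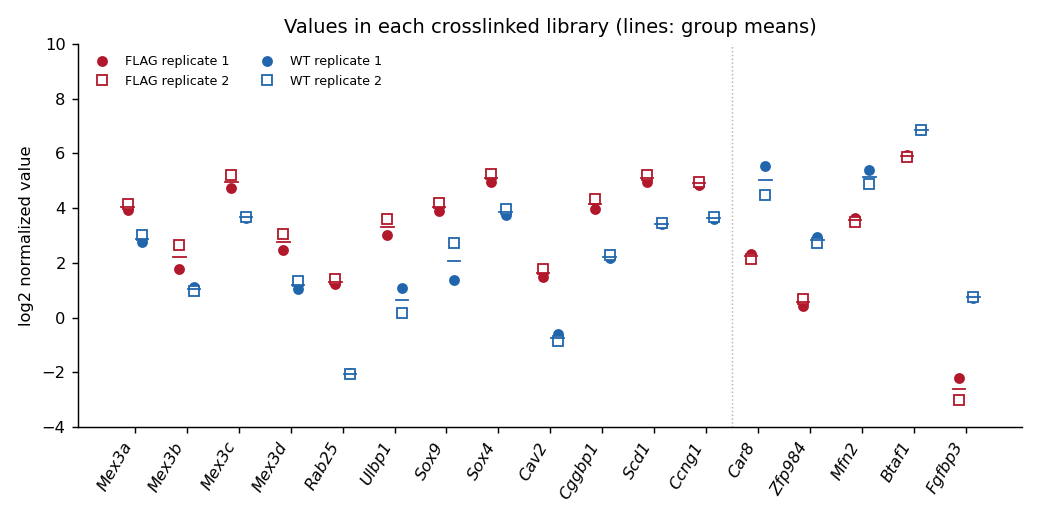
Log2 normalized value (y axis) of 17 named genes in each crosslinked library; red symbols are FLAG and blue symbols WT, circles replicate 1 and squares replicate 2, and short lines the group means. Genes left of the dotted line were higher and those right of it lower in FLAG, and the libraries of the groups do not overlap for any of them.

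Ccdc80, a secreted matrix protein, had values of 3.33 and 4.17 in FLAG and 0.74 and -1.87 in WT, and the WT libraries differed from each other by more than the FLAG libraries did. Its difference was 4.32 ± 0.97 (SE, unadjusted p = 0.0112, adjusted p = 0.487). Ulbp1, a ligand of the NKG2D receptor of natural killer cells, had 3.03 and 3.62 in FLAG and 1.09 and 0.17 in WT, a difference of 2.69 ± 0.40 (SE, unadjusted p = 0.00244, adjusted p = 0.355). Cav2, a caveolin of plasma membrane invaginations, had 1.47 and 1.76 in FLAG and -0.61 and -0.86 in WT. Its groups were clearly apart and its replicates close, with a difference of 2.35 ± 0.22 (SE, unadjusted p = 4.42e-04, adjusted p = 0.315). Cggbp1, which encodes a CGG repeat-binding protein, and Scd1, the stearoyl-CoA desaturase that makes monounsaturated fatty acids, had differences of 1.92 and 1.65. For Scd1 the values were 4.96 and 5.21 in FLAG and 3.43 and 3.45 in WT, so that the spread within each group was small beside the gap between them. Mecom, a zinc finger transcription factor, and Adam23, a noncatalytic ADAM protein of neuronal membranes, had differences of 2.24 and 2.09, and Mecom did not meet the threshold without WT replicate 1, at a similar difference of 2.02. The native differences of the same genes were 2.93 for Ccdc80, 2.94 for Ulbp1, 2.11 for Cav2, 2.40 for Cggbp1 and 1.67 for Scd1.

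Several transcription factors of neural progenitors were among the higher genes. In the list of Sox factors, which specify neural and glial fates, 4 of 12 measured genes were higher and 0 lower, with a median difference of 0.50 against -0.02 over all genes. Sox4 had values of 4.97 and 5.25 in FLAG and 3.76 and 3.98 in WT, a difference of 1.24 ± 0.15 (SE, unadjusted p = 0.00109, adjusted p = 0.315). Sox11 had 5.57 and 5.69 in FLAG and 4.72 and 4.86 in WT, a difference of 0.84, and both are single-exon genes that act in neuroblasts. Sox9, a factor of stem cells and astrocytes, had 3.89 and 4.19 in FLAG and 1.38 and 2.73 in WT. WT replicate 1 was the lowest of the 4 libraries, and the difference of 1.99 ± 0.50 (SE, unadjusted p = 0.0158, adjusted p = 0.511) became 1.31 without it. Sox2, the pan-neural stem cell factor, had a difference of 0.73, which was 0.41 and below the threshold without WT replicate 1. Of 19 proneural and glial lineage factors, 6 were higher and 0 lower, with a median of 0.36. Among them, Hes1, a Notch target that represses proneural genes, Olig1 and Olig2, factors of the oligodendrocyte lineage, and Pou3f4, a POU domain factor, had differences of 0.60, 0.74, 0.62 and 1.06, and Id4, an inhibitor of bHLH factors, one of 1.65. Of the 6, Olig1 (0.52), Olig2 (0.51) and Id4 (1.20) did not meet the threshold without WT replicate 1. Pou3f2 was not past the threshold (0.35). The list of other Notch pathway genes had 0 of 21 genes past the threshold in either direction and a median of 0.02.

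Stem cell and astrocyte genes, a list that also holds Sox2 and Sox9, had a positive median difference as well. There 9 of 22 measured genes were higher and 0 lower, with a median of 0.54, and 6 of the 9 met the threshold without WT replicate 1, where the median was 0.43. Ednrb, an endothelin receptor of astrocytes and stem cells, had values of 6.66 and 6.91 in FLAG and 5.92 and 5.97 in WT, a difference of 0.85 ± 0.12 (SE, unadjusted p = 0.00195, adjusted p = 0.340). Pla2g7, a secreted phospholipase that degrades platelet-activating factor, had 4.45 and 4.25 in FLAG and 3.48 and 3.26 in WT. The difference of Pla2g7 was 0.98, those of Gja1 (connexin 43), Vim (vimentin) and Apoe (apolipoprotein E) were 0.77, 0.61 and 0.61, of which Vim (0.57) and Apoe (0.51) did not meet the threshold without WT replicate 1. Aqp4, the astrocytic water channel, was not past the threshold, with a difference of 1.05 ± 0.58 (SE, unadjusted p = 0.146, adjusted p = 0.751). Prom1 had the lowest difference of the list, -0.51, but its groups overlapped, and the difference was -1.46 without WT replicate 1. Of 21 G protein-coupled receptors, Ednrb among them, 5 were higher and 0 lower, with a median of 0.34 (0.18 without WT replicate 1), including F2r, the thrombin receptor (1.36), Gpr37l1 (1.81) and Lpar4, a receptor of lysophosphatidic acid (1.37). Among the 11 neuroblast genes the lowest difference was that of Elavl4, a neuronal RNA-binding protein (-0.99, but 0.05 without WT replicate 1). The 11 genes had a median of 0.01, and 6 of them had positive differences. Of these genes 2 were higher, Cd24a, a surface protein of neuroblasts, with values of 3.52 and 3.42 in FLAG and 2.35 and 2.34 in WT, and Gad1, the enzyme that makes GABA, with 5.24 and 4.91 in FLAG and 4.17 and 3.88 in WT.

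Feedback regulators and short-lived mRNAs were mostly on the positive side. Of 17 genes of receptor tyrosine kinase feedback, 3 were higher, namely Spry2 and Spry1, which dampen FGF signalling, and Dusp6, an ERK phosphatase. Spry2 had values of 5.65 and 6.27 in FLAG and 4.74 and 4.51 in WT, a difference of 1.33 ± 0.24 (SE, unadjusted p = 0.00533, adjusted p = 0.418). Dusp6 and Spry1 had differences of 0.79 and 0.83, and Spry1 did not meet the threshold without WT replicate 1 (0.79). Among 32 immediate early and other unstable mRNAs, 90.6% had a positive difference, against 46.2% of all genes, although only 3 met the threshold, Phlda1 (0.82), Egr3 (0.58) and Klf6 (0.66). Without WT replicate 1, Egr3 (0.40) and Klf6 (0.82) did not meet it. Of 10 BTG, TOB and ZFP36 family genes and their partners, which recruit the mRNA decay machinery, 3 were higher, namely Pnrc2 with 3.56 and 3.68 in FLAG and 2.78 and 2.76 in WT, Pnrc1 and Tob1. Their differences were 0.85, 0.68 and 0.99, and all 3 met the threshold without WT replicate 1, where the median of the list was 0.29 against 0.50 with all libraries. Among 13 subunits of the CCR4-NOT deadenylase itself, 1 was higher, the catalytic subunit Cnot7 (0.64), and the median was -0.04. Of 21 p53 targets, 3 were higher, of which 1 met the threshold without WT replicate 1, namely Ccng1, a cyclin G, with values of 4.84 and 4.97 in FLAG and 3.62 and 3.68 in WT and a difference of 1.25 ± 0.09 (SE, unadjusted p = 1.69e-04, adjusted p = 0.315). Of 20 G1 cyclins and CDK inhibitors, 3 were higher, Ccnd1 (cyclin D1, 0.71), Cdkn1a, which is also a p53 target (0.65), and Cdkn2d (2.19), of which Ccnd1 (0.55) and Cdkn1a (0.49) did not meet the threshold without WT replicate 1, while 0 of 28 mitosis genes and 0 of 32 DNA replication genes met the threshold. Leaving out WT replicate 1 gave 1 higher replication gene, the helicase subunit Mcm4 (0.62, against 0.39 with all libraries). Among translational regulators, Purb, a single-exon gene for a single-stranded nucleic acid-binding protein, had values of 5.22 and 5.47 in FLAG and 4.02 and 3.95 in WT, a difference of 1.36 ± 0.12 (SE, unadjusted p = 3.38e-04, adjusted p = 0.315).

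Genes of ribosomal proteins, the respiratory chain, iron handling and the cytoskeleton, many with short mRNAs, had small positive median differences. Of 82 cytosolic ribosomal protein genes, 10 were higher and 0 lower, with a median of 0.23, and 9 of the 10 met the threshold without WT replicate 1. Rpl9 had values of 3.53 and 3.75 in FLAG and 2.85 and 2.80 in WT. The FLAG values were above the WT values, with differences of 0.81 for Rpl9 and 1.05 for Rps27l. Rps2 had the lowest difference of the list (-0.80), which did not meet the threshold. Its values were 4.31 and 5.66 in FLAG and 5.85 and 5.73 in WT, so FLAG replicate 1 was the lowest library by far. Of 78 nuclear genes of the respiratory chain, 9 were higher and 0 lower, with a median of 0.16, and 8 of the 9 met the threshold without WT replicate 1. The largest difference was that of Sdhd, a succinate dehydrogenase subunit, at 0.98 ± 0.11 (SE, unadjusted p = 7.18e-04, adjusted p = 0.315). Oxidative stress and iron genes had 6 of 22 higher and a median of 0.30, and 2 of the 6, Hmox1 and Sod2, met the threshold without WT replicate 1. Hmox1, the haem oxygenase, had values of 1.64 and 1.82 in FLAG and -0.19 and 0.39 in WT and Sod2, the mitochondrial superoxide dismutase, 2.97 and 3.02 in FLAG and 2.21 and 2.17 in WT. The FLAG libraries were higher in both, by 1.63 and 0.81. Actin and thymosin genes had 5 of 26 higher, including Actb (0.79), Tmsb4x (1.46) and Tmsb10 (1.12), and 3 of the 5 met the threshold when WT replicate 1 was left out, which Tmsb10 did not (0.88). Of 23 cholesterol genes, 2 were higher, Hmgcs1, an enzyme of cholesterol synthesis (0.96), and Stard4, a sterol carrier, which had values of 4.37 and 4.26 in FLAG and 3.26 and 3.06 in WT. Leaving out WT replicate 1 gave 4 higher genes in this list. Mitochondrially encoded genes had 0 of 16 past the threshold and a median of -0.09, but 5 were higher without WT replicate 1 (mt-Nd2, mt-Nd4, mt-Nd5, mt-Nd6 and mt-Cytb) and the median was 0.48. Their library medians were 3.36 and 3.46 in FLAG and 3.86 and 2.58 in WT, so the WT libraries lay on either side of FLAG.

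The clustered protocadherins, neuronal adhesion proteins encoded in the alpha, beta and gamma arrays on chromosome 18, separated by array. All 20 measured beta genes had positive differences, 12 were higher at the threshold, 0 were lower, and the median was 1.06, with 9 of the 12 also past the threshold without WT replicate 1. Pcdhb16 had values of 3.83 and 3.84 in FLAG and 2.46 and 2.71 in WT, a difference of 1.25 ± 0.12 (SE, unadjusted p = 5.25e-04, adjusted p = 0.315). Pcdhb19, with 3.83 and 3.83 in FLAG and 2.97 and 3.07 in WT, had a difference of 0.81, and Pcdhb5 had the largest, 1.96. The beta genes are single-exon genes and are similar in sequence, so reads shared between them may make their values depend on each other. The alpha genes followed neither group. Their median was 6.23 in FLAG replicate 1 and 6.35 in WT replicate 2, against 3.91 in FLAG replicate 2 and 4.20 in WT replicate 1, and 0 of 14 met the threshold. The alpha median difference was -0.19 with all libraries and -1.29 without WT replicate 1. The gamma genes had 0 of 21 past the threshold and a median of 0.02. Alpha genes share their last exons with each other, as do gamma genes, so single members of those arrays may share reads.

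**Figure D4:**
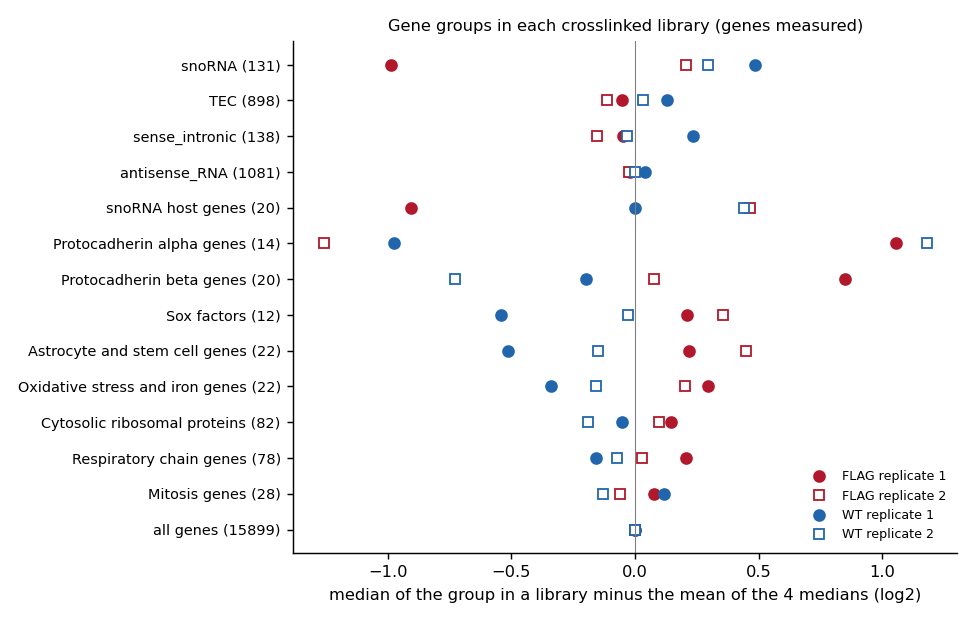
For each gene group, the median log2 value in a library minus the mean of the 4 library medians (x axis, log2); red symbols are FLAG, blue WT, circles replicate 1 and squares replicate 2, with the number of genes measured in brackets. Protocadherin beta, Sox, astrocyte and oxidative stress genes lie higher in both FLAG libraries, the alpha genes split across the groups, and the snoRNAs are set apart by FLAG replicate 1.

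Fewer genes were lower in FLAG, and none of the gene lists examined, noncoding biotypes aside, had more than 2 lower members with all libraries. Car8, a carbonic anhydrase-related protein without the enzyme activity, had values of 2.34 and 2.12 in FLAG and 5.54 and 4.49 in WT, a difference of -2.78 ± 0.39 (SE, unadjusted p = 0.00193, adjusted p = 0.340). Fbln2, a fibulin of the extracellular matrix, had 3.52 and 5.04 in FLAG and 7.04 and 6.75 in WT. All FLAG values were below all WT values, although the FLAG libraries differed from each other, and the difference was -2.61 ± 0.55 (SE, unadjusted p = 0.00883, adjusted p = 0.482). Alk, a receptor tyrosine kinase, Grin2a, an NMDA receptor subunit, Pdpn, the membrane protein podoplanin, and Trf, transferrin, had differences of -2.01, -1.59, -1.76 and -1.66. Without WT replicate 1, which had the highest value of both, Alk and Grin2a had differences of -1.27 and -0.95, while Fbln2 (-2.47), Pdpn (-1.65) and Trf (-1.29) were not past the threshold at differences at least as large. Dapk2, a death-associated kinase, had values of 1.58 and 1.67 in FLAG and 3.06 and 2.85 in WT, a difference of -1.32 ± 0.13 (SE, unadjusted p = 4.73e-04, adjusted p = 0.315). The collagens and laminins, matrix chains of which Col10a1 alone met the threshold (-0.62), had a median of -0.09, and without WT replicate 1 Col10a1 did not meet it at nearly the same difference (-0.61), while Col20a1, Col11a2, Lama2 and Lama4 were lower and Col26a1 was higher. Of 14 glutamate receptor subunits, Grin2a was the only member past the threshold.

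Some of the lower genes lay together on chromosomes 4 and 19. The centres of these neighbourhoods, Zfp984 and Fgfbp3, are themselves lower genes and are included in the counts. Neighbourhoods of other lower genes were not examined. Of 18 genes within 500 kb of Zfp984, a zinc finger gene at chr4:147753974-147809788, 7 were lower and 0 higher. Zfp984 had values of 0.43 and 0.68 in FLAG and 2.93 and 2.73 in WT, a difference of -2.28 ± 0.16 (SE, unadjusted p = 1.28e-04, adjusted p = 0.315). Mfn2, which mediates mitochondrial fusion, had 3.64 and 3.50 in FLAG and 5.41 and 4.88 in WT, a difference of -1.58 ± 0.21 (SE, unadjusted p = 0.00157, adjusted p = 0.340). The others were Gm20707, a lincRNA that overlaps Zfp984 on the same strand and may share its reads (-1.77), Fv1, a retroviral restriction factor (-1.75), Fbxo44, an F-box protein (-1.39), Miip (-1.10) and Zfp933 (-1.03), while the 11 remaining genes had differences of -1.13 to 0.35. Fv1 did not meet the threshold without WT replicate 1 (-1.30). Around Fgfbp3, an FGF-binding protein at chr19:36917550-36919615, 3 of 11 genes were lower. Fgfbp3 had values of -2.19 and -2.99 in FLAG and 0.72 and 0.76 in WT, a difference of -3.33 ± 0.45 (SE, unadjusted p = 0.00166, adjusted p = 0.340). Btaf1, a regulator of the TATA-binding protein, had 5.94 and 5.87 in FLAG and 6.87 and 6.84 in WT and Ide, the insulin-degrading enzyme, 4.98 and 4.92 in FLAG and 5.85 and 5.68 in WT. The replicates of both were close, and the differences were -0.95 and -0.81. Cpeb3, A330032B11Rik and March5, which lie between Btaf1 and Ide, had differences of 0.04, -0.04 and 0.14. In the native libraries Fgfbp3, Btaf1 and Ide had differences of -3.14, -1.07 and -0.74, and Zfp984 and Mfn2 of -2.40 and -1.27.

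**Figure D5:**
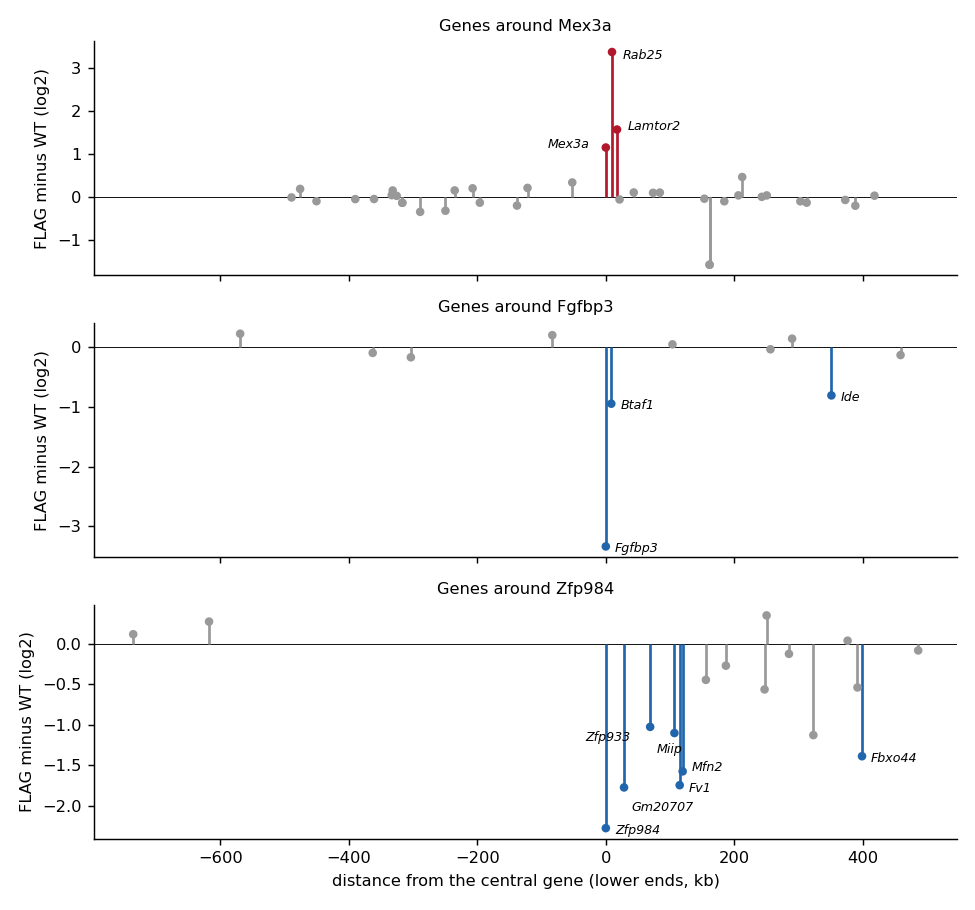
Difference between FLAG and WT (y axis, log2) of the genes around Mex3a, Fgfbp3 and Zfp984, by the distance in kb between the lower ends of each gene and the central gene (x axis); red genes were higher and blue genes lower in FLAG at the unadjusted threshold, grey genes neither. The higher genes around Mex3a number 3 and are adjacent, whereas 7 genes are lower around Zfp984 and 3 around Fgfbp3. Each count includes the central gene.

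Noncoding RNAs differed by biotype. Neat1, the architectural RNA of paraspeckles, had values of 9.72 and 9.29 in FLAG and 6.98 and 8.53 in WT. WT replicate 1 was the lowest, and the difference of 1.75 ± 0.57 (SE, unadjusted p = 0.0375, adjusted p = 0.610) was 0.98 without it. Gm28006 and Gm27505, small annotated RNAs that lie within Neat1 on the same strand and may share its reads, had differences of 1.68 and 1.42, which were 0.97 and 0.88 without WT replicate 1 and did not meet the threshold there. Among 552 lincRNAs, 12 were higher and 9 lower, including Gm13912 with 3.56 and 3.26 in FLAG and 1.69 and 1.24 in WT, a difference of 1.95 ± 0.21 (SE, unadjusted p = 7.53e-04, adjusted p = 0.315). Antisense RNAs had 23 of 1081 higher and 13 lower. When WT replicate 1 was left out, 24 lincRNAs were higher and 10 lower, including 10 of those 12 and 2 of those 9. For antisense RNAs the counts were then 40 and 14, including 18 of the 23 and 4 of the 13. TEC genes, loci whose annotation still awaits experimental evidence, had 5 of 898 higher and 13 lower (3 and 7 without WT replicate 1), a median of -0.15 and positive differences in 22.8%, and sense intronic RNAs had a median of -0.18 with positive differences in 23.2%, against 46.2% of all genes. The median of the sense intronic RNAs was -0.05 and that of the TEC genes -0.10 without WT replicate 1. The small nucleolar RNAs (snoRNAs), which guide the modification of ribosomal RNA, had 8 of 131 lower and 0 higher, and a median of -0.85. Without WT replicate 1, 1 of the 8, Snora17, was still lower and the median was -0.83. FLAG replicate 1 was the lowest library by far, as the library medians were 1.62 in FLAG replicate 1, 2.81 in FLAG replicate 2, 3.09 in WT replicate 1 and 2.90 in WT replicate 2. A list of 20 snoRNA host genes, picked by symbol and not matched to these snoRNAs, had a median of -0.60. It was low in the same library (2.90, against 3.81 to 4.27 in the others). Rny1, a Y RNA, had values of 2.71 and 2.62 in FLAG and 4.38 and 3.62 in WT, lower in both FLAG libraries, a difference of -1.33 against a native difference of 0.65.

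The crosslinked differences were set against those of the native libraries (3 FLAG and 3 WT, no formaldehyde) in a fit of all 10 libraries. The native groups differed in sex-linked RNA too, with FLAG minus WT differences of 5.14 for Xist, -4.82 for Uty, -3.86 for Ddx3y, -5.58 for Eif2s3y and -3.82 for Kdm5d, and the part of this in the native values was not tested. The difference between protocols passed the adjusted threshold for 0 genes (0% of 15899; limma, smallest adjusted p = 0.970), with 37 genes more positive and 31 more negative in the native libraries at an unadjusted p under 0.05. Side by side, the list medians were 0.50 crosslinked and 1.09 native for Sox factors, 0.54 and 0.91 for stem cell and astrocyte genes, 1.06 and 0.92 for beta protocadherins, and -0.85 and 0.42 for snoRNAs. The crosslinked snoRNA value is subject to the low library median of FLAG replicate 1 given above, as that of FLAG replicate 2 (2.81) was close to those of the WT libraries (2.90 and 3.09). Ost4, a small subunit of the oligosaccharyltransferase, had differences of 1.74 crosslinked and 0.37 native, and Igf2bp3, an RNA-binding protein of fetal cells, of 0.69 and -0.18, and its crosslinked difference was 0.81 without WT replicate 1, where it did not meet the threshold. None of these passed the adjusted test of the difference between protocols.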

How the data were processed

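RNA from anti-FLAG immunoprecipitates was sequenced as single 75-nt reads from random-primed stranded libraries. Per the labels' processing notes, FastQC, cutadapt, Trimmomatic, HISAT2, featureCounts and limma were used on GRCm38 (mm10), and the methods name DESeq2 for normalization. The authors deposited 1 matrix of log2 normalized values, filtered for low genes. Raised from the log2 scale, each library sums to about the same total (949427 to 949430), so depth is unknown and no count model was fitted.

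The 4 crosslinked libraries were compared on these log2 values with limma 3.58.1 (R 4.3.3), moderated along the trend of variance with level, and p-values were adjusted over all 15899 genes (Benjamini-Hochberg). The log2 threshold of 0.58 is that of the study, and 0.05 was applied to adjusted p-values for calls and to unadjusted ones for the descriptive counts. The steps were tested on simulated data. With 2 libraries a group, an exact permutation test of one gene cannot go below p = 0.333 (two-sided), so none was run. Gene lists and biotypes were described by counts and medians without a test. Members, lists and named genes were chosen with earlier results of these data known. Named genes were the 15 largest differences in each direction among separated genes past the threshold with a mean log2 value of at least 1, up to 4 members per list and direction, extremes of lists, genes the study names, and neighbours within 500 kb. Fgfbp3 and Zfp984 centre such neighbourhoods. Miip, Fv1, Ubqln4, A330032B11Rik, Cpeb3 and March5 lie in these neighbourhoods outside that rule, and were named after their values were seen, as were genes given as past the threshold only without WT replicate 1 and Snora17. Some results are not reported here. Exons and 3′ UTRs came from GENCODE M21, which holds 15864 of the genes. The study used GENCODE M16. Python 3.11.15 was used for the remaining steps.

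Alternatives were pseudocounts of 1 and 8, minimum linear means of 2 and 10, centring on coding genes, quantile normalization, a fit of all 4 groups, limma without trend or with robust moderation, the replicate number as a block, and each library left out. A crossed block and autosomal genes alone were added after seeing the data.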

Additional observations from a re-analysis of the deposited data

Results flagged for a closer look

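A pair of named genes had FLAG and WT libraries apart in opposite directions with the 2 protocols. The pseudogene AC160635.1 was lower in crosslinked FLAG libraries (-1.26) and had a native difference of 1.09 that did not meet the threshold, and at a mean crosslinked level of -0.80 its difference was -1.48 without WT replicate 1, where it did not meet the unadjusted threshold. The native minus crosslinked difference was 2.35 (adjusted p = 0.970, limma). Fosl1, an AP-1 factor, had differences of -0.11 and 0.82, and 0.93 between protocols (adjusted p = 0.970, limma), so neither passed the adjusted test.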

How the results depend on the processing

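Counts at the unadjusted threshold were 442 higher and 157 lower. They were 319 and 90 with a pseudocount of 1, 68 and 34 with a pseudocount of 8, 301 and 85 with a linear mean of at least 2, 117 and 36 with at least 10, and 222 and 96 in the fit of all libraries. Fewer genes are tested under the minimum means, and a pseudocount shrinks low values by construction. For the fit of all libraries, the cause was not tested. Centring on coding genes, quantile normalization, no trend, robust moderation and autosomal genes alone gave 414 to 482 higher and 147 to 175 lower. The deposited values already share nearly 1 distribution, so quantile normalization changed almost nothing and was no test. Leaving out 1 library gave 320 to 769 higher and 166 to 458 lower. Without WT replicate 2 the counts were 769 and 458, without FLAG replicate 1 421 and 250, and without FLAG replicate 2 320 and 308. No gene passed the adjusted threshold under any setting (0) except without WT replicate 2, where 4 did (Xist, Tsix, Gm26992 and Gm27927, all at the Xist locus), a range of 0 to 4 over the libraries left out. The test between protocols gave 0 genes under every alternative run. With the other form of the recognition element, 78.9% of the higher genes held it, against 80.5%. In matches per kb, the median of the higher genes was 2.92 with the main form and 2.50 with the other, against 2.24 and 2.08 in all coding genes.

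The same-numbered libraries deviated from their group means in opposite directions (r = -0.27 across genes). With 2 libraries a group, crossed numbers give the same value with the other sign. This value therefore cannot tell whether the numbers pair the samples. With the replicate block, 414 genes were higher, 156 lower, 0 passed the adjusted threshold and 0 differed between protocols. A crossed pairing, chosen after seeing the data, gave 501 and 226. No named gene past the threshold changed direction under any alternative. Of 306 named genes, 56 lost the unadjusted threshold without FLAG replicate 1, 65 without FLAG replicate 2, 66 without WT replicate 1 and 54 without WT replicate 2, when the lone library of a group is assumed to vary like the other group. The same held for 99 in the fit of all libraries, 41 with a pseudocount of 1, 150 with a pseudocount of 8 and 22 with the replicate block. The 306 also include genes that did not meet the threshold with the 4 crosslinked libraries, such as Xist and Aqp4. These genes could not lose it, so counts out of 306 understate the share lost. Depth is unknown, so which low genes counting error limits cannot be told.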
